A study of Mus musculus with 8 samples.

Results

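The transcripts described here are 10 genes of the circadian clock and its transcriptional output, read by gene symbol from a table of 35638 genes measured in mouse liver. They are the activators Arntl, Npas2 and Clock, the repressors Per1, Per2, Cry1 and Nr1d1, and the output factors Dbp, Tef and Hlf. All 10 were found, and 8 had a mean of at least 1 FPKM (fragments corrected for the length of the gene and the size of the library) over the 8 libraries, the minimum for a test. Arntl and Npas2 were below it. Livers were taken at postnatal day 90 and frozen, and the mice had a mixed background of C57/B6 and 129. In the 4 KO samples both Arid1a alleles carried loxP sites (Arid1a Fl/Fl) and Alb-cre was present, a transgene that expresses Cre recombinase from the albumin promoter in hepatocytes. The 4 WT samples had the same floxed alleles without Cre, so floxed Arid1a was common to both groups and Cre was present in KO alone. The product of Arid1a belongs to the SWI/SNF family of chromatin remodellers. Whether each library of a group stands for its own mouse is not in the labels, so p-values reflect only the scatter among these libraries, part of which may be technical.

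In the clock of mammalian cells, ARNTL (also called BMAL1) pairs with CLOCK or NPAS2 and binds E-boxes, which switches on the Per and Cry genes, Nr1d1 and the genes of the PAR bZIP factors Dbp, Tef and Hlf. PER and CRY proteins inhibit that activator pair, and REV-ERB-alpha, the product of Nr1d1, represses Arntl, Npas2, Clock and Cry1 through ROR elements. In mouse liver these transcripts therefore follow each other around the day: Arntl and Npas2 stand opposite to Dbp, and Nr1d1 peaks shortly before Dbp and Per transcripts. The DBP, TEF and HLF proteins bind D-boxes and drive daily rhythms of liver metabolism. The labels give neither the time of day at collection nor the feeding state of the mice.

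Depth, estimated from the steps between low values, was about 13700000 to 15200000 reads per KO library and 12400000 to 13600000 per WT library. Hepatocyte markers summed to 30994 to 44146 FPKM in KO and 27432 to 37922 FPKM in WT, and T and B cell markers to at most 0.126 FPKM in KO and 0.119 FPKM in WT. Arid1a itself was at 2.70, 2.86, 3.46 and 2.59 FPKM in KO 1 to KO 4 and at 5.16, 8.38, 3.998 and 4.10 FPKM in WT 1 to WT 4, without overlap. The library WT 4 stood apart from the rest: it was the highest or lowest of the 8 libraries for 37.9% of the 11266 genes tested, against 19.98 to 29.8% for each of the other libraries. Results that rest on it are therefore given with and without it. In bulk liver, fewer cells of a type and less RNA per cell cannot be told apart.

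In clock transcripts the library that stood out was WT 4, while no clock gene passed the test between KO and WT. WT 4 held the highest Arntl, Npas2 and Clock and the lowest Per1, Per2, Dbp and Tef, 7 of the 10 genes. Among the 8 genes that could be tested, 3 (Per2, Dbp and Tef) lay at least 2-fold outside the range of the other libraries in WT 4, or 37.5%, against 3.39% of all genes tested. Cry1, Nr1d1 and Hlf in WT 4 lay within the range of the other libraries.

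**Figure D1:**
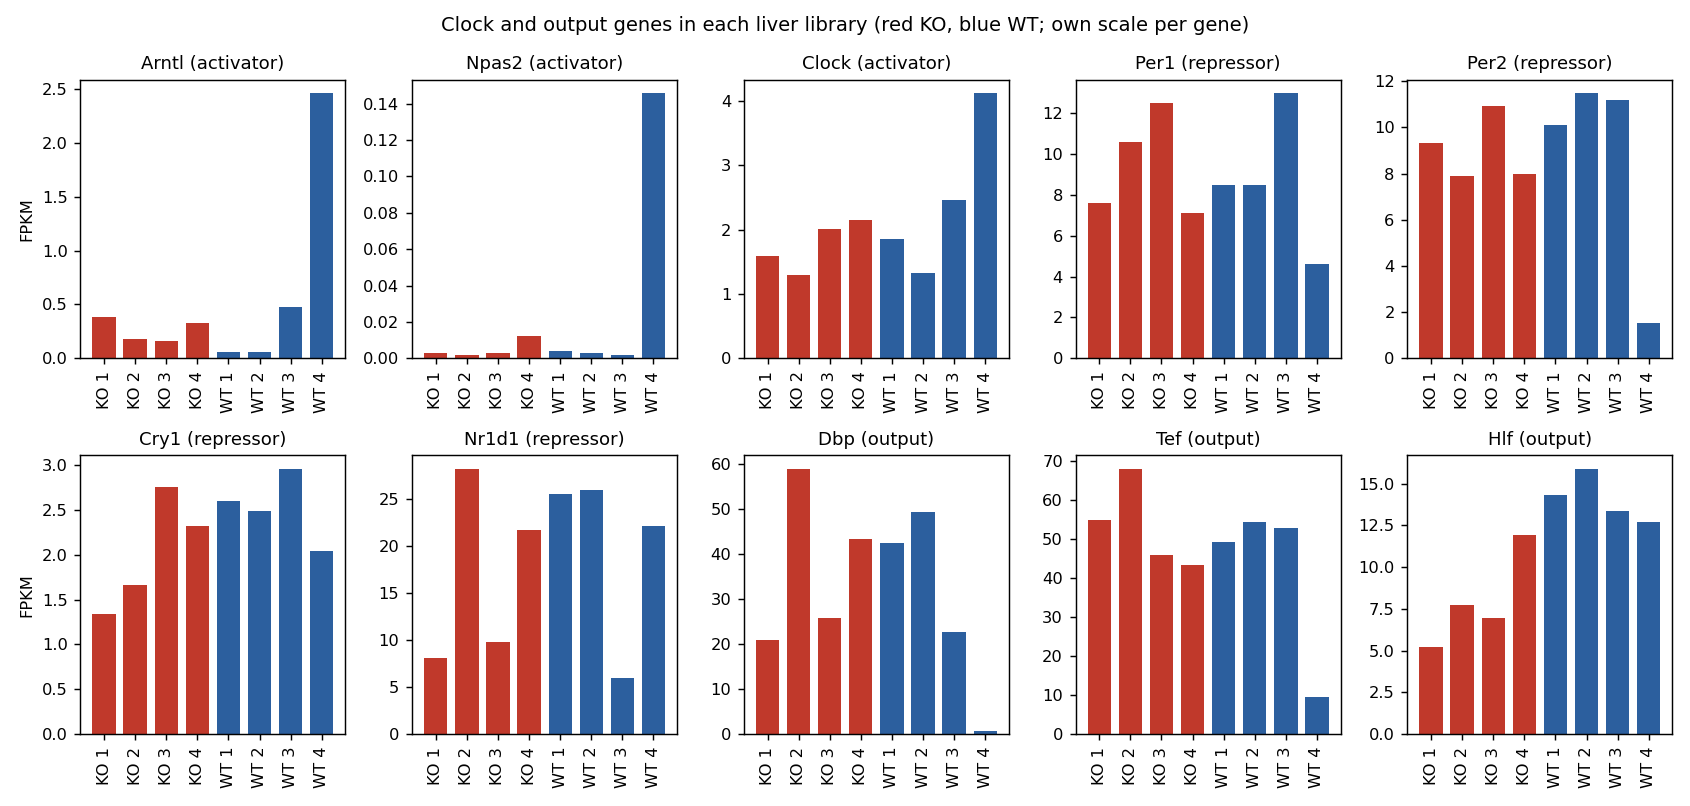
FPKM of each clock gene (vertical axis, own scale per gene, from 0) in KO 1 to KO 4 (red) and WT 1 to WT 4 (blue), 1 bar per library. WT 4 is highest for Arntl (2.46 FPKM) and lowest for Dbp (0.569 FPKM), and Hlf is lower in every KO library than in every WT library.

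Arntl (ENSMUSG00000055116, chromosome 7, 113207465 to 113314126, GRCm38, plus strand), the activator that the clock cannot run without, was measured at 0.384, 0.177, 0.164 and 0.324 FPKM in KO 1 to KO 4, against 0.0619, 0.0590, 0.472 and 2.46 FPKM in WT 1 to WT 4. WT 4 was 5.22 times above the next library, WT 3, and the 4 KO libraries lay between WT 1 and WT 3. With the longest annotated transcript, 3995 nt, these values stand for at most 8.97 to 20.996 reads in KO, 3.12 to 25.6 reads in WT 1 to WT 3 and 122 reads in WT 4, so the order of the 7 low libraries rests on few reads. Because Arntl was under the minimum, its change was read from a fit without a filter. There it was -0.30 on the log2(FPKM + 1) scale (SE 0.37, limma adjusted p = 0.793, exact permutation p = 0.714), and 0.09 without WT 4 (limma adjusted p = 0.831). The direction in this comparison was set by WT 4.

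The upstream bases of Arntl are shown because the gene is the point where REV-ERB-alpha closes the loop. The RefSeq table (GRCm38.p6), with windows from 250 bases before to 50 bases after a gene start, matched 9 of the 10 genes, all except Per2. For the ROR element a loose pattern was searched on both strands, TNGGTCA with any base at N. Its matches are in capitals in the sequences of Arntl. The E-box, CACGTG, reads the same on both strands and is in capitals in those of Per1, Cry1 and Tef. The Arntl promoter stretch is chr7:113207215-113207464, plus strand, and the Arntl site, whose capitals begin at base 31 of a second annotated transcript start, is chr7:113207530-113207559. The other sites are chr11:69098771-69098800 (Per1, plus strand), chr10:85185097-85185126 (Cry1, minus strand) and chr15:81811264-81811293 (Tef, plus strand).
Arntl promoter: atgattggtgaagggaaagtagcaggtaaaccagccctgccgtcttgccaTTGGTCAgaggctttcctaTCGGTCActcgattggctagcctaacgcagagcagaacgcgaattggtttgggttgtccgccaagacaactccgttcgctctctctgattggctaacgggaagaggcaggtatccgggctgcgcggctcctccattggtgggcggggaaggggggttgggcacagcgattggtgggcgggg
Arntl site: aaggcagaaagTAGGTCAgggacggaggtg
Per1 site: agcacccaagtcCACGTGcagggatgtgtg
Cry1 site: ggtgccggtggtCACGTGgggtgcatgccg
Tef site: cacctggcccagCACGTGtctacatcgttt

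TNGGTCA was present in windows of 2 of the 9 matched genes, Arntl and Tef, against 12.4% of the 27025 genes in the table. CACGTG was present in 3 of 9, Per1, Cry1 and Tef, against 8.09% of genes. The D-box forms TTATGTAA and TTACGTAA were present in 0 of 9, against 1.11% and 0.126% of genes. Elements outside these windows of 300 bases were not searched, and a match is a string of letters, not a measured site.

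Npas2 (ENSMUSG00000026077, chromosome 1, 39193731 to 39363236), the partner that can stand in for CLOCK, was at 0.00288, 0.00171, 0.00286 and 0.0123 FPKM in KO 1 to KO 4, against 0.00413, 0.00314, 0.001705 and 0.146 FPKM in WT 1 to WT 4. WT 4 was 11.9 times above the next library, KO 4. In the KO libraries and WT 1 to WT 3 these values stand for 0.0979 to 0.770 of a read, so Npas2 was not detectable at this depth outside WT 4, where the value stands for at most 7.66 reads. Values under 1 read cannot come from whole reads counted once, so reads for this gene were split or estimated in a way the sources used here do not give, and its low levels are uncertain. Clock (ENSMUSG00000029238, chromosome 5, 76209868 to 76304792), the usual partner of ARNTL, was at 1.59, 1.29, 2.001 and 2.14 FPKM in KO 1 to KO 4 and at 1.85, 1.33, 2.46 and 4.12 FPKM in WT 1 to WT 4. Clock was the steadiest of the activators, with WT 4 at 1.67 times the next library. Clock also overlaps a pseudogene on its own strand, Ube2n-ps1, at 1.99 to 5.62 FPKM in KO and 2.70 to 5.88 FPKM in WT. The mean of Clock was 1.76 ± 0.388 FPKM in KO and 2.44 ± 1.21 FPKM in WT (SD, n = 4 each), a log2 change of -0.27 (limma adjusted p = 0.844) and of -0.06 without WT 4.

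Among the repressors, the Period genes were lowest in WT 4. Per1 (ENSMUSG00000020893, chromosome 11, 69095217 to 69109960), a Period gene that also answers to acute signals, was at 7.60, 10.6, 12.5 and 7.12 FPKM in KO 1 to KO 4, against 8.502, 8.46, 12.99 and 4.64 FPKM in WT 1 to WT 4. Per2 (ENSMUSG00000055866, chromosome 1, 91415982 to 91459324) was at 9.33, 7.88, 10.9 and 7.999 FPKM in KO 1 to KO 4, against 10.1, 11.5, 11.2 and 1.55 FPKM in WT 1 to WT 4. Apart from WT 4, Per2 hardly varied, with the highest library at 1.46 times the lowest, and WT 4 was 5.10 times below the lowest of them. The log2 change was 0.15 for Per1 and 0.30 for Per2 (limma adjusted p = 0.939 and 0.922), and -0.08 and -0.26 without WT 4.

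Cry1 (ENSMUSG00000020038, chromosome 10, 85131700 to 85185064), which encodes the strongest inhibitor of the activator pair, was at 1.34, 1.66, 2.76 and 2.32 FPKM in KO 1 to KO 4, against 2.60, 2.49, 2.96 and 2.04 FPKM in WT 1 to WT 4. The groups overlapped, with means of 2.02 ± 0.639 FPKM in KO and 2.53 ± 0.378 FPKM in WT (SD, n = 4 each). The log2 change of Cry1 was -0.24 (limma adjusted p = 0.807). WT 4 did not stand apart in Cry1, unlike in the Period genes.

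Nr1d1 (ENSMUSG00000020889, chromosome 11, 98767932 to 98775333) divided the libraries in another way. Nr1d1 stood at 8.10, 28.3, 9.84 and 21.7 FPKM in KO 1 to KO 4, against 25.6, 25.9, 5.95 and 22.2 FPKM in WT 1 to WT 4. KO 1, KO 3 and WT 3 lay at or below 9.84 FPKM and the other 5 libraries at or above 21.7 FPKM, so that both levels occurred in both genotypes. The means were 17.0 ± 9.66 FPKM in KO and 19.9 ± 9.47 FPKM in WT (SD, n = 4 each), with a log2 change of -0.20 (95% interval -1.35 to 0.94, limma adjusted p = 0.957). Nr1d1 overlaps Thra on the opposite strand over 1075 annotated bases, and whether strand was used in the counting is unknown, so reads there may be shared. Thra was at 0.572 to 0.912 FPKM in KO and 0.381 to 1.84 FPKM in WT.

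Dbp (ENSMUSG00000059824, chromosome 7, 45705088 to 45710203), the output factor with the strongest daily swing in liver, had the widest range of the 8 tested clock genes. It was at 20.8, 58.9, 25.8 and 43.3 FPKM in KO 1 to KO 4, against 42.4, 49.3, 22.6 and 0.569 FPKM in WT 1 to WT 4. WT 4 was 36.6 times below the lowest of the other libraries, KO 1, and stands for at most 12.96 reads against 524 to 1645 in the others. The means of 37.2 ± 17.4 FPKM in KO and 28.7 ± 21.9 FPKM in WT (SD, n = 4 each) gave a log2 change of 1.07 (95% interval -1.11 to 3.24, limma adjusted p = 0.835), which was -0.08 without WT 4 (limma adjusted p = 0.975). The sign of the Dbp difference was therefore that of 1 library. Dbp overlaps Sphk2 on the opposite strand over 737 bases, and Sphk2 was at 9.63 to 18.4 FPKM in KO and 7.33 to 15.5 FPKM in WT.

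Tef (ENSMUSG00000022389, chromosome 15, 81802421 to 81826863) was at 54.8, 68.0, 45.9 and 43.3 FPKM in KO 1 to KO 4, against 49.1, 54.3, 52.7 and 9.42 FPKM in WT 1 to WT 4. Outside WT 4 the highest library was 1.57 times the lowest, so Tef was nearly level where Dbp varied 2.83-fold. Its log2 change was 0.59 (limma adjusted p = 0.814), and 0.004 without WT 4.

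Hlf was the 1 clock gene whose KO and WT libraries did not overlap. Hlf (ENSMUSG00000003949, chromosome 11, 90336536 to 90390895) was measured at 5.23, 7.72, 6.97 and 11.9 FPKM in KO 1 to KO 4, against 14.3, 15.9, 13.4 and 12.7 FPKM in WT 1 to WT 4. The highest KO library, KO 4, stayed under the lowest of WT, WT 4, though these were close. The means were 7.96 ± 2.85 FPKM in KO and 14.1 ± 1.38 FPKM in WT (SD, n = 4 each), a ratio of 0.566 and a log2 change of -0.80 ± 0.23 (SE, 95% interval -1.31 to -0.28). The limma adjusted p was 0.206 over all genes, so Hlf did not pass the threshold of 0.05, and for Hlf alone the exact two-sided permutation p was 0.0286, which is as low as 70 splits can go. Without WT 4 the change was -0.84 (limma adjusted p = 0.243). Unlike Dbp and Tef, Hlf was not the lowest in WT 4, where it stood above all 4 KO libraries.

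Of the 8 clock genes tested, 0 passed the limma test with Benjamini-Hochberg adjustment, against 0.763% of all 11266 genes (46 or 0.408% higher and 40 or 0.355% lower in KO). At an unadjusted p under 0.05, 1 of the 8, Hlf, was lower and 0 were higher, against 4.82% lower and 4.99% higher, or 9.81% in all, among all genes. Groups without overlap gave the same single gene, 1 of 8 lower in KO, against 3.18% of all genes. The median log2 change of the 8 genes was -0.02, against -0.03 over all genes tested. The 95% intervals were wide, from -0.52 to 1.71 for Tef and from -0.75 to 1.35 for Per2, so these libraries bound the genotype difference only loosely.

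**Figure D2:**
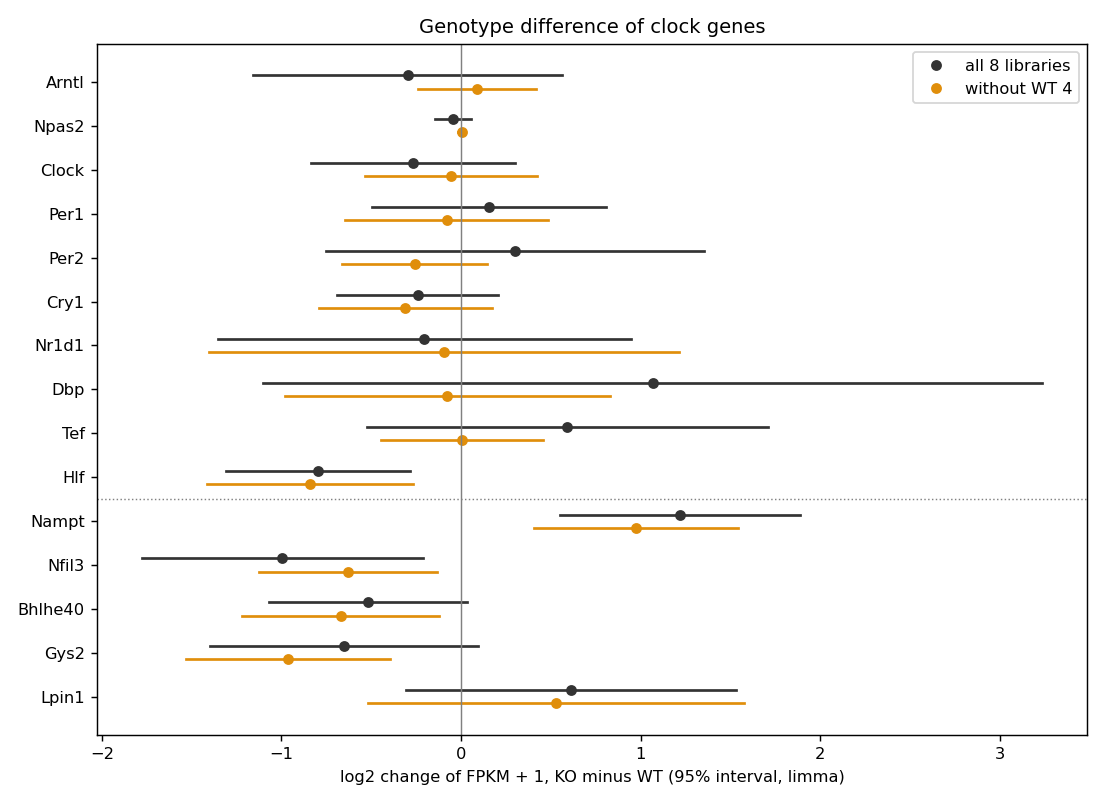
Log2 change of FPKM + 1, KO minus WT, with its 95% interval from limma (horizontal axis), for the 10 clock genes and, under the dotted line, 5 genes of the wider clock list. Black uses all 8 libraries and orange leaves out WT 4. Dbp is at 1.07 with all libraries and at -0.08 without WT 4, while Hlf is at -0.80 and -0.84. Arntl and Npas2 come from the fit without a filter.

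The spread within a genotype showed which of these genes vary most between libraries. The pooled within-genotype SD of log2(FPKM + 1) was 1.72 for Dbp, larger than in 99.9% of the genes tested, 0.88 for Nr1d1 (95.3%), 0.86 for Tef (94.8%) and 0.80 for Per2 (93.3%), against a median of 0.34 over all genes. Without WT 4 it was 0.95 for Nr1d1 (97.0% of genes) and 0.63 for Dbp (88.0%), but 0.23 for Tef (26.6%) and 0.16 for Per2 (10.6%), against a median of 0.32. Nr1d1 and Dbp thus stayed variable among the other 7 libraries, whereas the spread of Tef and Per2 came from WT 4.

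**Figure D3:**
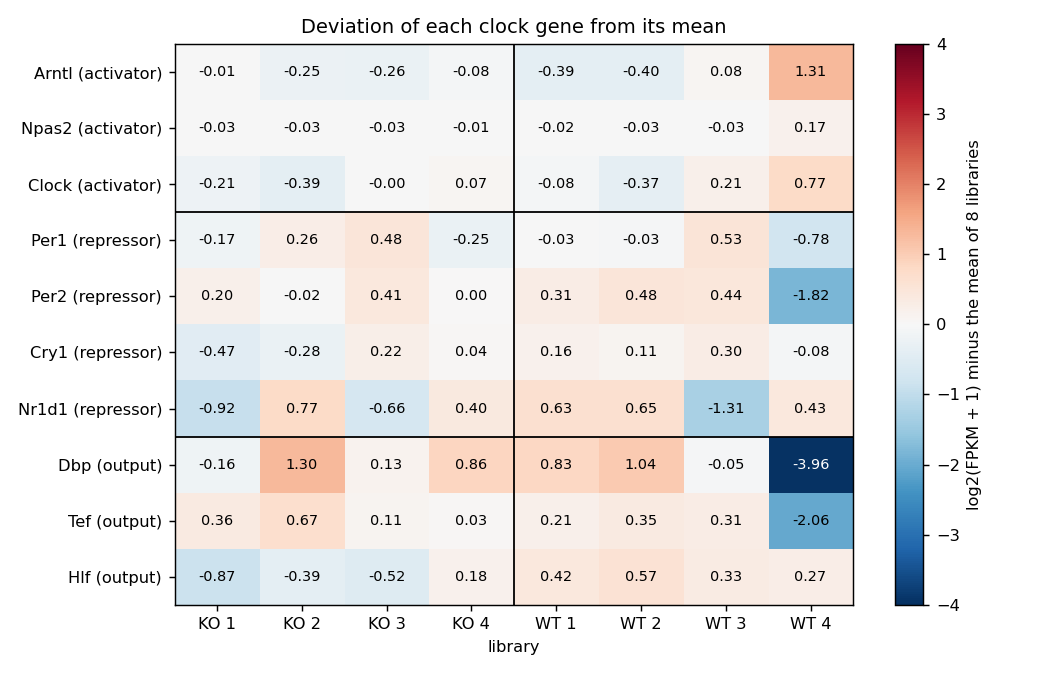
Deviation of log2(FPKM + 1) from the mean of the 8 libraries, for each clock gene (rows, grouped by role) and library (columns, KO left and WT right), with the value printed in each cell. WT 4 is positive for the 3 activators and at -3.96 for Dbp, and Nr1d1 is negative in KO 1 (-0.92), KO 3 (-0.66) and WT 3 (-1.31).

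The phase relation of the clock genes was read from their joint levels, library by library. The ratio of Nr1d1 to Dbp was 0.389, 0.480, 0.382 and 0.502 in KO 1 to KO 4 and 0.603, 0.526, 0.263 and 39.0 in WT 1 to WT 4, so that WT 4 alone lay far above the rest. Both genes were low in KO 1, KO 3 and WT 3 and high in KO 2, KO 4, WT 1 and WT 2. Over these 7 libraries Pearson's r was 0.96 (exact permutation p = 0.00258, adjusted over 45 pairs 0.116) and Spearman's rho 0.93 (exact permutation p = 0.00675, adjusted 0.304). Over all 8 libraries r was 0.10 (exact permutation p = 0.919) and rho 0.69 (exact permutation p = 0.0694, adjusted 0.467), and without KO 1 and WT 3, the libraries farthest from the median of Nr1d1, r was 0.13. The libraries lay in separate clusters, with WT 4 alone, so these coefficients describe the clusters and are not read as a graded relation.

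Arntl stood opposite to Dbp. The ratio of Arntl to Dbp was 0.0184, 0.00301, 0.00636 and 0.00747 in KO 1 to KO 4, against 0.00146, 0.0012, 0.0209 and 4.33 in WT 1 to WT 4. Across the 8 libraries Pearson's r of log2(FPKM + 1) was -0.97 (exact permutation p = 0.00662, adjusted over 45 pairs 0.0745) and Spearman's rho -0.71 (exact permutation p = 0.0576, adjusted 0.467). Without WT 3 and WT 4, the libraries farthest from the median of Arntl, r was -0.52, and without WT 4 alone -0.65 (exact permutation p = 0.119), so the strength of the relation rests on WT 4. WT 3 and KO 1 followed the same order at a smaller scale, with Arntl above, and Dbp below, the levels in KO 2, KO 4, WT 1 and WT 2. KO 3 was the exception, with low Dbp and low Arntl. Arntl in KO 1 was only just above KO 4 (at most 20.996 against 19.2 reads), too close to order these libraries.

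**Figure D4:**
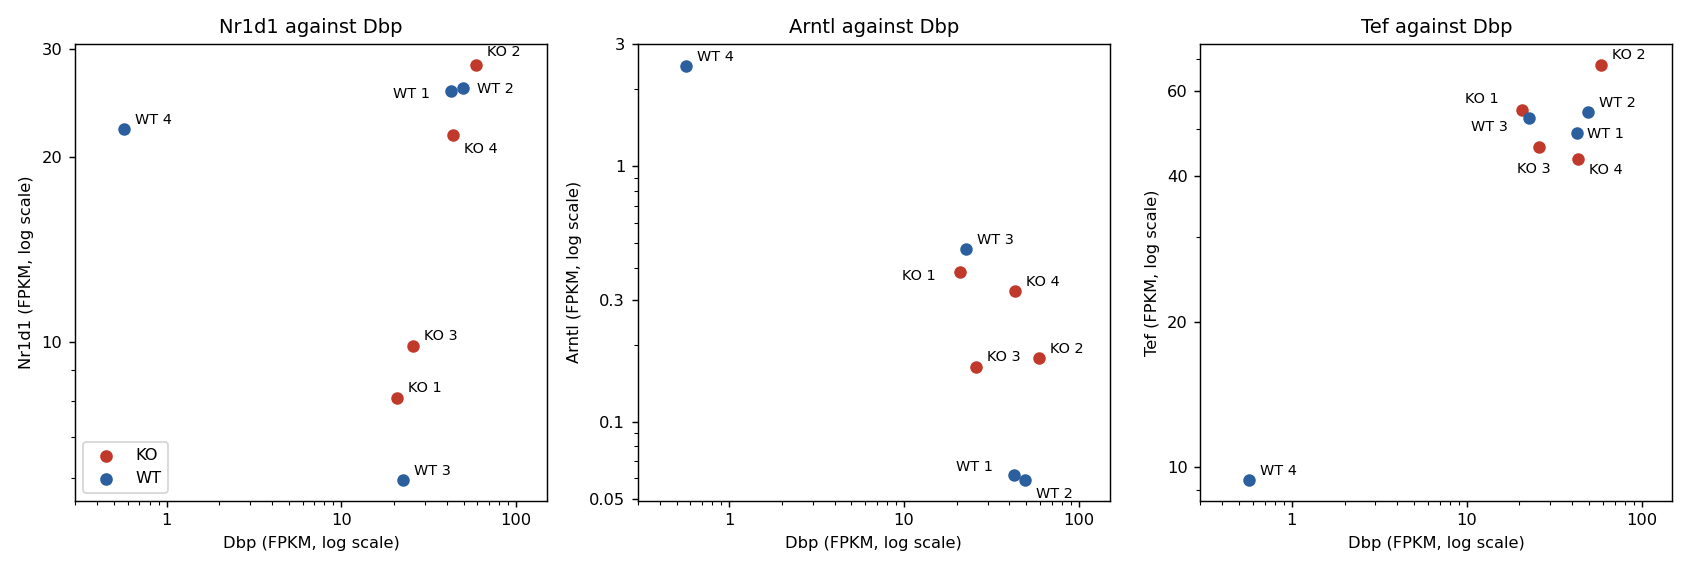
Nr1d1, Arntl and Tef (vertical axes, FPKM, log scale) against Dbp (horizontal axis, FPKM, log scale), 1 point per library, KO red and WT blue. Nr1d1 and Dbp are high together or low together in 7 libraries while WT 4 has 22.2 FPKM of Nr1d1 with 0.569 FPKM of Dbp. Arntl is highest where Dbp is lowest, and Tef is level except in WT 4 (9.42 FPKM).

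By role, the 9 pairs of an activator with an output gene had a median Pearson's r of -0.90 over 8 libraries, with 6 pairs negative and the 3 pairs with Hlf positive. The 3 pairs of activators ran from 0.84 to 0.95, and from 0.12 to 0.56 without WT 4. The 12 pairs of an activator with a repressor ran from -0.97 to 0.23. Without WT 4 the medians were -0.31 for activator with output and -0.05 for activator with repressor, and 14 of the 45 pairs changed sign. Of the 45 pairs 2 passed an adjusted exact permutation p of 0.05, Npas2 with Per1 (r = -0.77, adjusted p = 0.0480) and Npas2 with Tef (r = -0.98, adjusted p = 0.0480). Both involve Npas2, which was detected only in WT 4. No pair passed by Spearman's rho (2 of 45 at an unadjusted p under 0.05, both tests exact permutations) or without WT 4 (1 of 45 unadjusted).

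The wider clock and its known output were described through 30 further genes, of which 25 had a mean of at least 1 FPKM. Of these 25, 0 passed the adjusted limma test in either direction, against 0.763% of all genes. At an unadjusted p under 0.05, 2 of the 25 were higher and 1 was lower, against 4.99% and 4.82% of all genes. The median log2 change was 0.05. Nampt, Nfil3, Bhlhe40, Gys2 and Lpin1 were among the 6 with the smallest p. Nampt, the rate-limiting enzyme of NAD salvage and a clock output, was at 24.0, 20.5, 22.7 and 21.2 FPKM in KO 1 to KO 4, against 10.2, 7.31, 16.4 and 4.94 FPKM in WT 1 to WT 4. Every KO library was above every WT library, with means of 22.1 ± 1.54 FPKM in KO and 9.72 ± 4.94 FPKM in WT (SD, n = 4 each). The log2 change of Nampt was 1.22 (limma adjusted p = 0.131), and 0.97 without WT 4 (limma adjusted p = 0.176). Over 19 alternatives the limma adjusted p of Nampt ran from 0.0482 to 0.283. Only 1 of them passed, the fit without WT 3, the WT library nearest to KO. Nfil3 (E4BP4), which competes with the PAR bZIP factors at D-boxes, was at 1.81, 2.86, 1.81 and 1.48 FPKM in KO 1 to KO 4, against 4.44, 2.90, 3.48 and 11.5 FPKM in WT 1 to WT 4. The groups did not overlap, though KO 2 and WT 2 nearly met (log2 change -0.99, limma adjusted p = 0.345). Over all 8 libraries 1 of the 25 genes, Nampt, was higher in KO without overlap and 1, Nfil3, was lower. These counts were close to the shares among all genes tested, 3.05% higher and 3.18% lower. Without WT 4 the log2 change of Nfil3 was -0.63 (limma adjusted p = 0.321).

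Bhlhe40, a repressor at E-boxes, was at 21.8, 29.7, 34.8 and 41.0 FPKM in KO, against 59.8, 43.0, 48.5 and 32.6 FPKM in WT (log2 change -0.52, limma adjusted p = 0.545). Gys2, the liver glycogen synthase gene and a CLOCK target, was at 22.8, 38.9, 26.9 and 32.3 FPKM in KO, against 78.9, 46.8, 54.9 and 24.2 FPKM in WT (log2 change -0.65, limma adjusted p = 0.590). In Bhlhe40 and Gys2 alike, WT 4 was the 1 library of WT that lay among the KO values. Lpin1, a phosphatidate phosphatase gene, overlapped between groups at 100.7, 53.4, 88.2 and 61.5 FPKM in KO and 52.1, 23.4, 105 and 40.2 FPKM in WT (log2 change 0.61, limma adjusted p = 0.734).

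Without WT 4 none of the 25 wider genes passed the adjusted limma test either (0.32% of all genes higher, 0.302% lower and 0.621% in either direction). Groups without overlap then numbered 2 higher in KO (Nampt among them) and 5 lower (Bhlhe40, Nfil3, Ciart, Gys2 and Tspan4) of 25, against 5.97% and 4.85% of all genes. This count without WT 4 was added after the data were seen. In Bhlhe40, Gys2, Tspan4 and Ciart, WT 4 was the WT library within or below the KO values. These genes separate only because it was left out, so the count is a description. At an unadjusted p under 0.05, 2 were higher and 6 lower, against 5.83% and 4.89% of all genes. Ciart, a repressor of the clock activators named here after its values were seen, was at 1.76, 4.25, 5.65 and 2.52 FPKM in KO 1 to KO 4, against 13.7, 11.3, 9.46 and 0.364 FPKM in WT 1 to WT 4. Its change was -1.53 without WT 4 (limma adjusted p = 0.0848) and -0.73 with it (0.844).

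WT 4 stood at least 2-fold outside the other libraries in 7 of the 25 wider genes, 1 above and 6 below, or 28%, against 3.39% of all genes. The genes named next were chosen for their level in WT 4 after it was seen, and their values are a description. Per3, another Period gene, was at 0.455 FPKM in WT 4, against 5.51 to 9.18 FPKM in KO and 7.80 to 10.5 FPKM in WT 1 to WT 3. Wee1, a mitotic kinase gene under E-box control, was at 0.484 FPKM in WT 4 and at 4.18 FPKM or more in every other library. Nr1d2, the REV-ERB-beta gene, was at 5.06 FPKM in WT 4, against 12.6 to 17.8 FPKM in KO and 13.1 to 19.2 FPKM in WT 1 to WT 3. Its paralogue Nr1d1 was not low in WT 4, as given above.

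The genes with patterns most like those of Dbp and Arntl were found among 4375 genes with a mean of at least 5 FPKM, by Pearson's r of log2(FPKM + 1) over the 8 libraries. Highest with Dbp were Dclk3 (r = 0.98), Gadd45a (0.96), Kat2b (0.96), Cgrrf1 (0.93), Igbp1 (0.93) and Cers6 (0.92). Without WT 4, r was 0.83 for Dclk3, 0.82 for Gadd45a and 0.28 for Cgrrf1. Lowest with Dbp were Insig2 (r = -0.99, and -0.91 without WT 4), Ate1 (-0.96), Fpgs (-0.96), Fkbp15 (-0.93), Crebzf (-0.93) and Nhp2l1 (-0.93). Insig2, which encodes a retention factor of the SREBP pathway in the endoplasmic reticulum, was at 22.9, 12.8, 25.7 and 14.5 FPKM in KO 1 to KO 4, against 14.7, 14.9, 19.6 and 116 FPKM in WT 1 to WT 4. Insig2 was higher in the libraries with low Dbp and low Nr1d1, KO 1, KO 3 and WT 3, than in KO 2, KO 4, WT 1 and WT 2, and highest in WT 4. Because Insig2 was picked by its r with Dbp over these same libraries, this order is a description. Highest with Arntl were Fpgs (0.97), Ate1 (0.97), Nhp2l1 (0.96), Mvk (0.95), Cpsf1 (0.94) and Crebzf (0.94). These coefficients share the same 8 libraries and are led by WT 4.

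Other lists of genes also differed between these libraries. Genes raised by fasting had a mean log2(FPKM + 1) of 5.75 in WT 4, against 3.87 to 4.68 in KO and 4.16 to 4.59 in WT 1 to WT 3. Genes raised by feeding were at 3.51 in WT 4, against 4.26 to 6.25 in KO and 5.25 to 5.43 in WT 1 to WT 3. Glucocorticoid targets, a list that holds Per1, were at 3.99 in WT 4, against 4.07 to 5.06 in KO and 3.66 to 4.51 in WT 1 to WT 3. Immediate early genes, which respond within minutes to stimuli and handling, were at 4.67, 4.71, 4.23 and 4.96 in KO 1 to KO 4, against 5.48, 5.88, 5.05 and 4.94 in WT 1 to WT 4. On average 7 of 7 were lower in KO, where the median log2 change over all genes tested was -0.03. The list mean of WT 4 lay below that of KO 4, so the list did not separate the groups. Of the 7, 1 was lower without overlap, against 3.18% of all genes tested. Macrophage markers summed to 54.9, 12.3, 96.8 and 68.6 FPKM in KO 1 to KO 4, against 4.67, 5.63, 8.03 and 8.06 FPKM in WT 1 to WT 4. Of these markers 6 of 7 were higher in KO without overlap, against 3.05% of all genes tested. The exception was Marco, at 0.331 FPKM in KO 2, 0.346 FPKM in WT 3 and 0 in WT 1. Vsig4, Marco, Adgre1 and Cd68 were under 1 FPKM in every WT library and reached the minimum for a test only through KO. The share over all genes is therefore not an even comparison for this list, and the count is a description. Endothelial markers summed to 3.43 to 10.6 FPKM in KO and 1.25 to 3.05 FPKM in WT, with Lyve1 at 0 in WT 1, WT 2 and WT 4, and stellate markers to 8.21 to 20.98 FPKM in KO and 1.90 to 5.97 FPKM in WT, with Col1a1 at 0 in WT 1 and WT 3. Of the cholangiocyte markers Krt19 was at 0 in 7 libraries, and the list summed to at most 0.196 FPKM in KO and 0.462 FPKM in WT. The part of these cells, of feeding and of handling in the levels of Hlf, Nampt and the clock genes of WT 4 was not tested.

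**Figure D5:**
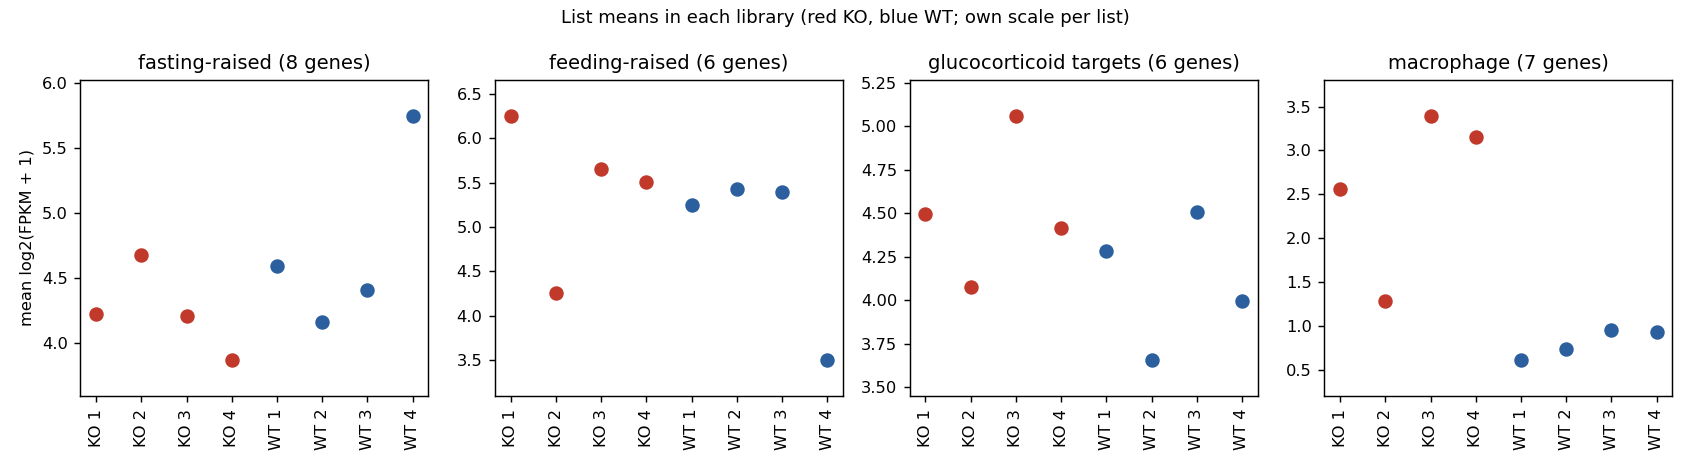
Mean log2(FPKM + 1) of genes raised by fasting, genes raised by feeding, glucocorticoid targets and macrophage markers (vertical axes, own scale per list) in each library, KO red and WT blue. WT 4 is highest for the fasting list (5.75) and lowest for the feeding list (3.51), and every KO library is above every WT library for the macrophage list.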

How the data were processed

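Total RNA of frozen mouse liver was sequenced in 8 libraries, and the authors deposited 1 table of FPKM values per Ensembl gene and library. Per the labels' protocols, Trizol and the miRNeasy kit of Qiagen served for RNA isolation and Nugen reagents for the libraries. The submitters' processing notes list TopHat, edgeR and mm10 with no version. Which program computed FPKM, with what annotation and strand setting, is not given in the sources used here. Because FPKM shares out a library, a few abundant genes (40.9 to 50.4% of FPKM in the top 10) lower the rest.

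Table columns carry the sample names. Tests used log2(FPKM + 1), so a fold change is on that scale and understates the change of low genes. For the 11266 genes with a mean of at least 1 FPKM, limma 3.58.1 under R 4.3.3 compared KO with WT (intensity trend, two-sided, Benjamini-Hochberg over all genes, threshold 0.05). Single genes were compared by exact permutation, and pairs of genes over all orders of the libraries. On simulated data for this comparison of 11266 genes, the fit recovered 37 of 100 genes with a true log2 change of 1 and 84 of 100 with one of 2, with 7 false among 128 calls. The simulated noise was normal and independent for each gene and library. No simulated library stood apart as WT 4 did, so these rates may not hold for the real libraries. Read depth was estimated from genes with a single transcript of at least 600 nt, as the depth that brought low values nearest to whole read numbers. At that depth 53.2 to 57.3% of these values were whole to a tolerance of 0.1, against 20% for evenly spread values. The depth was fitted to the same values, which raises that share, so it is no separate check of the depth. Reads per gene are therefore approximate and counting tests were not run. Of the gene IDs 99.4% (35421) matched GENCODE M21 (GRCm38, the build mm10), the source of coordinates. Plots used Python 3.11.15 with matplotlib 3.10.9.

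The members, lists and tests were chosen with earlier results of these data known. The text names all members, 5 of the 6 genes of the wider list with the smallest p (none passed the threshold; the other is not reported here), and the 6 most like Dbp, most like Arntl and least like Dbp. Other genes were chosen after their values were seen. Alternatives were the pseudocount (0.1 or 5 FPKM), the filter, scaling, limma options, a block for the replicate number, and fits lacking 1 or 2 libraries.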

Additional observations from a re-analysis of the deposited data

Results flagged for a closer look

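In 50 groups of 4 libraries (the 10 clock genes, 6 wider clock genes and 9 list means, in KO and in WT), 6 held a library far from the other 3 by Dixon's gap, where chance marks about 1 in 20 groups. WT 4 accounted for 4 of them. Npas2 was at 0.0123 FPKM in KO 4, against 0.00171 to 0.00288 FPKM in KO 1 to KO 3, each KO value standing for under 1 read, and at 0.146 FPKM in WT 4, against 0.001705 to 0.00413 FPKM in WT 1 to WT 3. Per2 was at 1.55 FPKM and Tef at 9.42 FPKM in WT 4, each below the rest of WT. Nr1d1 was at 5.95 FPKM in WT 3, below 22.2 to 25.9 FPKM in the rest of WT. The mean log2(FPKM + 1) of the genes raised by feeding was 3.51 in WT 4.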

How the results depend on the processing

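Of the 8 clock genes tested, 0 passed in either direction under any of the 19 alternatives (6 of them were tested with a minimum of 5 FPKM), and Hlf stayed lower in KO in all 19 (log2 change -0.99 to -0.58, limma adjusted p 0.0973 to 0.427). Of the wider clock list 0 to 1 was higher when single libraries were left out. The count over all genes (46 higher, 40 lower) was 27 higher with a pseudocount of 5 FPKM, 26 lower with no filter, and 14 higher and 13 lower with a minimum of 5 FPKM. It ran from 20 to 90 higher and 14 to 44 lower when 1 library was left out. With the replicate block it was 16 higher and 8 lower; equal numbers did not pair the libraries (correlation of deviations from group means 0.10, -0.07, 0.02 and 0.25), and the block changed no call of a clock gene. Without WT 4 and KO 2, 71 genes were higher.

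None of the other clock genes was called, and the sign of the log2 change depended on the libraries for all of them but Cry1. When 1 library was left out, it ran from -0.48 to 0.090 for Arntl, -0.062 to 0.0028 for Npas2, -0.079 to 0.36 for Per1, -0.26 to 0.51 for Per2, -0.67 to 0.068 for Nr1d1 and -0.076 to 1.59 for Dbp. The value of the other sign came without WT 4, and for Nr1d1 without KO 1. Without WT 4 and KO 2 it turned to 0.12 for Arntl, 0.0043 for Npas2, 0.028 for Clock, -0.14 for Per1, -0.20 for Per2, -0.33 for Dbp and -0.12 for Tef. With values centred on genotype, r was -0.96 for Arntl with Dbp and -0.93 for Npas2 with Dbp. Permutation over all libraries gave adjusted p of 0.0205 and 0.0284. Centred values cannot be exchanged freely between genotypes, so these p-values are not exact and no conclusion is drawn from them. Npas2 with Dbp turned to 0.10 without the libraries farthest from the median. When 1 library was left out, r ran from -0.98 to -0.65 for Arntl with Dbp, from -0.74 to 0.076 for Arntl with Nr1d1 (0.040 with a pseudocount of 5 FPKM), from -0.96 to 0.24 for Npas2 with Dbp, and from -0.021 to 0.96 for Nr1d1 with Dbp. The cause of these shifts was not tested. Depth limits Arntl and Npas2 most, and intervals cover the spread between libraries only.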

Other observations

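The genes below were chosen after their values were seen and were given no test. Tat, a glucocorticoid-induced aminotransferase gene of hepatocytes, was at 628, 340, 850 and 532 FPKM in KO 1 to KO 4, against 427, 417, 847 and 669 FPKM in WT 1 to WT 4. Tat was highest in KO 3 and WT 3, where Nr1d1 was low, but stood higher in WT 4, with high Nr1d1, than in KO 1, with low Nr1d1. Lpin1, of the wider clock list, was at 88.2 FPKM or more in KO 1, KO 3 and WT 3 and at 61.5 FPKM or less in the other libraries. Elovl3, a fatty acid elongase gene of the wider clock list that was under the minimum for a test, was listed at 0 in the 4 KO libraries and in WT 1 and WT 2, with 0.244 FPKM for WT 3 and 2.47 FPKM for WT 4.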
